A study of Mus musculus with 3 samples.

Results

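The cells described here are the conventional CD4 T cells of 4T1 tumours, picked by their own transcripts from a droplet single-cell RNA sequencing experiment on whole dissociated tumours. A cell was a member if it showed 200 genes or more, with mitochondrial genes giving no more than 20% of its UMIs (unique molecular identifiers, each standing for 1 captured transcript), at least 3 UMIs summed over Cd3e, Cd3d, Cd3g, Trac, Trbc1 and Trbc2, at least 1 UMI of Cd4, and no UMI of Cd8a, Cd8b1 or Foxp3. Purity limits also applied, with C1qa, C1qb and C1qc under 0.1% of UMIs, Wfdc2, Krt8 and Krt18 under 0.1%, and S100a8, S100a9, G0s2, Hdc and Csf3r under 1%. This gave 503 members among 16353 cells that passed the gene and mitochondrial limits, of 17088 barcodes in all. The sgCPT1A library held 236 members among 6743 kept cells, and the sgVC library held 267 among 9610.

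4T1 is a mouse mammary carcinoma line that forms tumours in mice. In the sgCPT1A group the tumour line was 4T1-sgCPT1A, named for a guide against Cpt1a, which encodes the rate-limiting enzyme of fatty acid entry into mitochondria, and its genotype is labelled a knockdown. In the sgVC group, set against it, the tumour line was 4T1-sgVC and its genotype is labelled wild type. Both groups were female mice of 8 to 10 weeks, the tumour-bearing animals were housed for 8 days, and both tissues are labelled as xenografts derived from a cell line, with mouse as the organism. The guide is a label of the tumour line, so the T cells described here are cells of the tumour tissue and not the edited line, and neither the strain of the host nor the number of animals per library is given in the labels. The series asks how the cellular make-up of the tumour differs after Cpt1a depletion, given that an antibody against CD8 had little effect on tumour regression. Each group had 1 library with a file, a further sgCPT1A sample was not analysed here, and no test was made. Every interval below is a 95% interval and covers counting error only, not the spread between tumours.

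CD4 T cells recognise peptides on MHC class II molecules and direct other immune cells through surface ligands and secreted cytokines. Activated CD4 T cells take on helper programmes, among them Th1, which makes interferon gamma under the transcription factor T-bet (Tbx21), and Th2, which makes Il4, Il5 and Il13 under Gata3, while follicular helper cells supply Il21 and Cd40lg to B cells. Regulatory T cells, marked by Foxp3, restrain these responses, and the rule kept apart only those with a captured Foxp3 UMI. Ikzf2, another gene of regulatory T cells, was seen at full depth in 28 sgCPT1A members and 51 sgVC members.

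The members' summed UMIs came to 1784841 in sgCPT1A and 1651619 in sgVC. The median member had 6048 UMIs and 2007.5 genes in sgCPT1A (range 1358 to 40214 UMIs) and 4396 UMIs and 1571 genes in sgVC (range 843 to 49252 UMIs), so a gene had more chances to be seen in an sgCPT1A member. Levels are given as CPM, a gene's UMIs per 1000000 UMIs of the cells summed. Markers of RNA quality also differed: in members, 18S ribosomal RNA (Rn18s-rs5) stood at 37109 CPM in sgCPT1A and 12760 CPM in sgVC, mt-Rnr2 at 22308 and 9976 CPM, and the nuclear RNA Malat1 at 13863 and 6302 CPM, and their part in the results was not tested. Of all barcodes, 18 occurred in both libraries, and none of these was a member in both. The libraries also differed in what surrounded the members: cells over the neutrophil limit numbered 4038 in sgCPT1A and 1603 in sgVC, and cells over the tumour limit 32 and 4113. Here and below, these names cover only kept cells with no UMI of the T cell genes of the rule and under the other purity limits. For the tumour limit, Col1a1, Col1a2, Col3a1 and Dcn also had to be under 0.5% of UMIs. Other cells over a limit were not counted. Cpt1a stood at 26.2 CPM in the cells over the tumour limit in sgCPT1A and at 16.5 CPM in those of sgVC, and 3′ tags need not report a guide's cut, so these levels do not check the label.

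The values that chose the members were read as a description only. The median member had 31.5 T cell gate UMIs in sgCPT1A and 25 in sgVC. Just inside the rule, 3 sgCPT1A members and 6 sgVC members had exactly 3 gate UMIs, and just outside it 3 and 6 kept cells had 2 gate UMIs and a Cd4 UMI. Membership turned more on Cd4 itself, since 75 sgCPT1A members and 118 sgVC members had 1 Cd4 UMI. A CD4 T cell in which no Cd4 transcript was captured falls outside the rule, as may a share of the 199 sgCPT1A and 355 sgVC T-gated cells with no UMI of Cd4, Cd8a, Cd8b1 or Foxp3.

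Cd28 and Cd40lg, which the rule did not use, checked the name. Cd28 (chromosome 1, 60716800 to 60773359, plus strand, GRCm38), the costimulatory receptor of T cells, stood at 690 CPM in sgCPT1A members (652 to 730) and 386 CPM in sgVC members (357 to 417), against 0.714 and 0.745 CPM in cells over the neutrophil limit of the same libraries. CD8 T cells carried it too, at 377 and 420 CPM. Cd40lg (chromosome X, 57212143 to 57224042, plus strand), the ligand through which helper cells engage CD40 on B cells and dendritic cells, was the sharper marker. It stood at 136 CPM in sgCPT1A members (119 to 154) and 50.3 CPM in sgVC members (40.03 to 62.3). CD8 T cells had 1 UMI of Cd40lg in each library, Foxp3 T cells none, and T-gated cells without Cd4, Cd8a, Cd8b1 and Foxp3 UMIs 10.1 and 15.1 CPM. Both markers were thus present in members and at or near 0 outside T cells. Transcripts of other cells were also found: 3 sgCPT1A members and 7 sgVC members had Col1a1, Col1a2, Col3a1 and Dcn at 0.5% or more of their UMIs, and these few cells held 97.8% and 98.9% of the members' UMIs of the 4 collagen-matrix genes, and 4.64% and 11% of all members' UMIs.

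Members were a larger share of T cells in the sgCPT1A library, with fewer CD8 T cells beside them. Members made up 43.7% of the 540 T-gated cells in sgCPT1A (39.5 to 48.0%) and 29.7% of the 898 in sgVC (26.8 to 32.8%). CD8 T cells, defined by the same limits with at least 1 UMI of Cd8a or Cd8b1 and none of Cd4 or Foxp3, made up 12.4% in sgCPT1A (9.75 to 15.5%) and 23.5% in sgVC (20.8 to 26.4%). There were 3.52 members per CD8 T cell in sgCPT1A (2.67 to 4.69; 236 and 67 cells) and 1.27 in sgVC (1.05 to 1.52; 267 and 211 cells). Depth bears on these shares through the Cd4 and Cd8 cut-offs. With every cell thinned to 1000 UMIs before the rule was applied, there were 1.62 members per CD8 T cell in sgCPT1A and 0.789 in sgVC, the same order, but members were 18.1% and 16.0% of T-gated cells, so the shares lay closer together at equal depth.

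Against all kept cells, the direction turned on the denominator. Members were 3.5% of kept cells in sgCPT1A (3.07 to 3.97%) and 2.78% in sgVC (2.46 to 3.13%). With the cells counted as over the tumour limit left out of the total, members were 3.52% of 6711 cells in sgCPT1A (3.09 to 3.99%) and 4.86% of 5497 in sgVC (4.30 to 5.46%). Cells over that limit that missed its other conditions stayed in the total. Thinned to 1000 UMIs, members were 1.05% and 1.12% of kept cells. Foxp3 T cells were few, at 13 in sgCPT1A (2.41% of T-gated cells) and 26 in sgVC (2.90%).

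**Figure D1:**
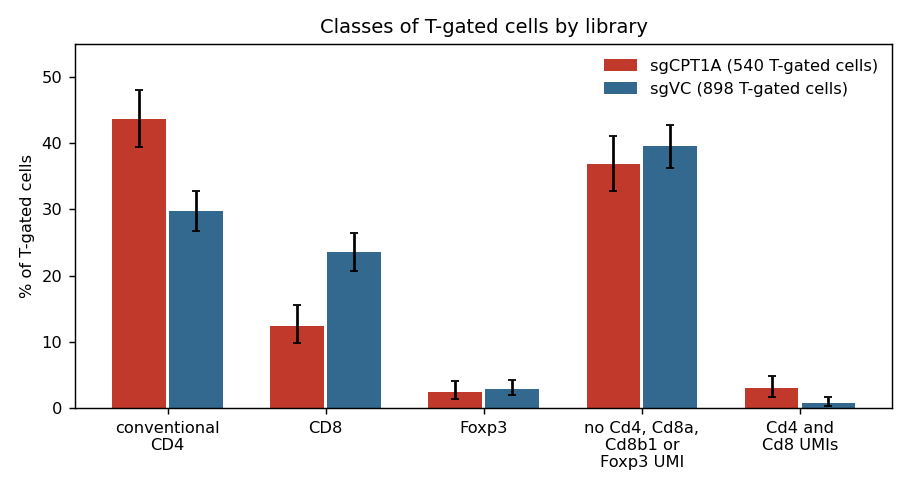
Share of T-gated cells (%) in each class, sgCPT1A at left (red, 540 cells) and sgVC at right (blue, 898 cells), with exact binomial 95% intervals. Conventional CD4 T cells are the larger share in sgCPT1A (43.7% against 29.7%) and CD8 T cells the smaller (12.4% against 23.5%), at the cells' own depth.

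Set against CD8 T cells of the same library, members had higher helper ligands and cytokines and CD8 T cells higher cytotoxic genes, and fibroblast transcripts moved with the comparison in sgVC. Of 6470 genes with at least 30 UMIs in each library's comparison, 123 were higher in members at least 2-fold in both libraries (1.9%) and 50 were lower (0.773%). Over the libraries taken one by one, 7.25% of genes were higher and 6.57% lower at least 2-fold in sgCPT1A, and 8.89% and 3.01% in sgVC. Genes with no UMI in CD8 T cells were ranked on lower bounds, so the order of the largest ratios is approximate. Among the genes furthest apart in the same direction in both libraries was Cd40lg itself, at 136 CPM in members and 1.503 CPM in CD8 T cells of sgCPT1A (log2 ratio 6.495, 4.004 to 11.80), and at 50.3 and 1.08 CPM in sgVC (5.54, 3.02 to 10.86).

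Among secreted factors, Csf2 (GM-CSF, a growth and activating factor for myeloid cells) stood at 146 CPM in members and 6.01 CPM in CD8 T cells of sgCPT1A (4.60), and at 600 and 2.16 CPM, 2 UMIs in CD8 T cells, in sgVC (8.12, 6.26 to 11.17). Il13, a type 2 cytokine, stood at 75.6 CPM in sgCPT1A members with no UMI in CD8 T cells, a log2 ratio of at least 4.07 against the floor of 3 UMIs, and at 278 CPM in members and 1.08 CPM, 1 UMI, in CD8 T cells of sgVC (8.01, 5.52 to 13.32). Il4, its neighbour on chromosome 11, stood at 65.6 CPM in sgCPT1A members and 56.3 CPM in sgVC members, with no UMI in CD8 T cells of either library (at least 3.86 and at least 4.12). Each of these cytokine transcripts was almost wholly on the CD4 side of the classes compared. Il4 rested on few cells, since 13 sgCPT1A members and 19 sgVC members had a UMI of it, and 1 member held 81 of 117 UMIs in sgCPT1A and 1 held 39 of 93 in sgVC.

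Genes of surface molecules were also among the named genes on the CD4 side. Tnfsf8 (CD30 ligand) stood at 108 CPM in members and 4.51 CPM in CD8 T cells of sgCPT1A (4.58, 3.02 to 6.87), and at 164 and 1.08 CPM in sgVC (7.25, 4.76 to 12.56), with 3 UMIs and 1 UMI in CD8 T cells. Tnfrsf4 (OX40, a costimulatory receptor of activated CD4 T cells) stood at 236 CPM in sgCPT1A members with no UMI in CD8 T cells (at least 5.71), and at 300 and 29.1 CPM in sgVC (3.37). Maf, a transcription factor that drives Il4 and Il21, stood at 371 and 19.5 CPM in sgCPT1A (4.25) and at 190 and 27.0 CPM in sgVC (2.81). The other genes on this side were Ramp3, a partner protein of peptide hormone receptors (at least 3.98 and at least 4.38), Prxl2a (4.48, 2.60 to 7.55 with 2 UMIs in CD8 T cells, and 4.02) and the galectin Lgals7 (3.19 and 4.70).

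On the CD8 side, Gzmb, the granzyme that triggers apoptosis in target cells, stood at 124 CPM in members and 3937 CPM in CD8 T cells of sgCPT1A (−4.98), and at 367 and 3796 CPM in sgVC (−3.37). Gzmk, another granzyme, stood at 8.96 and 329 CPM in sgCPT1A (−5.20) and at 8.48 and 486 CPM in sgVC (−5.84). Nkg7, a protein of cytotoxic granules, was less one-sided, at 356 and 1363 CPM in sgCPT1A (−1.94) and at 399 and 1876 CPM in sgVC (−2.23). The rest of this side were Ly6c2 (−4.30 and −3.68), Esm1 (−3.40 and −3.67), the integrin Itga4 (−2.48 and −2.75), the lectin-like receptors Klrc1 (−2.03 and −3.02), Klrc2 (−1.99 and −2.93) and Klrk1 (−1.84 and −1.80), and Ifi214 (−1.86 and −2.35). Klrc1 and Klrc2, and Ifi214 with its relatives, belong to families of near-identical genes between which reads can be divided.

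**Figure D2:**
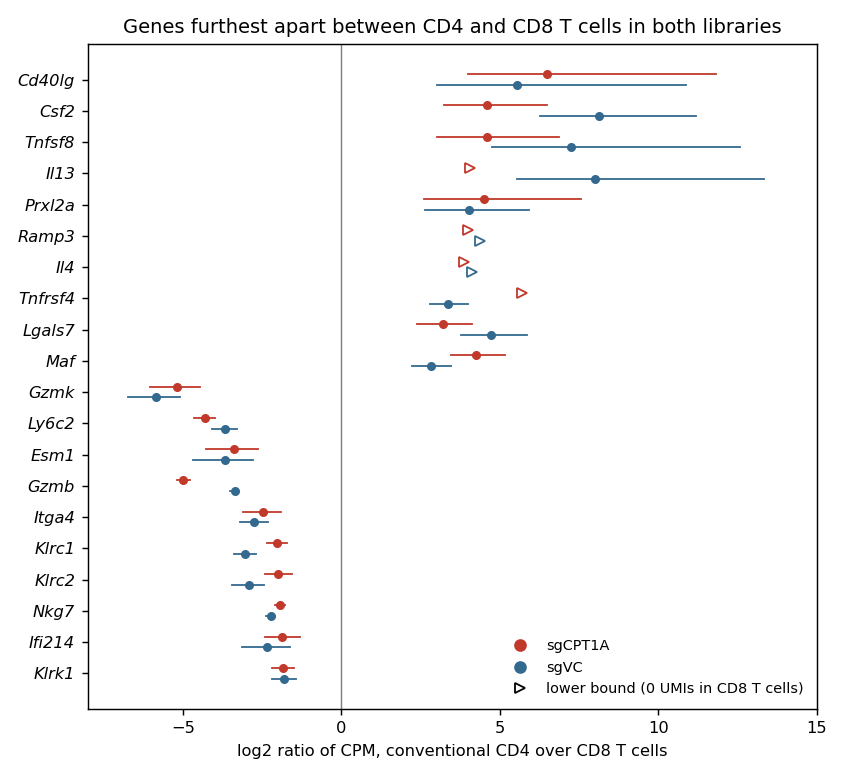
Log2 ratio of CPM, conventional CD4 over CD8 T cells, for the 10 highest and 10 lowest genes in both libraries, with 95% counting intervals (red sgCPT1A, blue sgVC) and open triangles for lower bounds where CD8 T cells had no UMI. Cd40lg (6.495 and 5.54) and Gzmk (−5.20 and −5.84) stand at opposite sides of 0.

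Described by list, with 1.5-fold as the step, 12 of 16 measured cytokine and help genes were higher in members than in CD8 T cells and 1 was lower in sgCPT1A (median log2 ratio 1.99, all genes 0.05), and 13 of 16 were higher and 0 lower in sgVC (median 4.06, all genes 0.09), although the sgVC median was −0.32 with cells thinned before the rule. At this step 18.6% of all genes were higher and 15% lower in sgCPT1A, and 17.9% and 8.61% in sgVC. Genes of activation and costimulation were higher for 12 of 21 (median 0.69) and 14 of 21 (median 0.92). Cytotoxic genes were lower for 11 of 14 in sgCPT1A (median −1.89) and 13 of 17 in sgVC (median −2.23). Genes known from regulatory T cells, which members could still carry without a captured Foxp3 transcript, were higher than in CD8 T cells for 8 of 13 (median 1.48) and 12 of 15 (median 2.21). The cell cycle list stood lower in members than in CD8 T cells in sgCPT1A (0 of 18 higher and 10 lower, median −0.66) and higher in sgVC (6 of 19 higher and 0 lower, median 0.41). Per cell, its median share of UMIs lay close together, at 0.117% in members and 0.122% in CD8 T cells of sgCPT1A. In sgVC these shares were 0.158% and 0.159%. Fibroblast markers were higher for 1 of 8 and lower for 4 in sgCPT1A (median −0.53), and higher for 10 of 10 in sgVC (median 6.14). Without collagen-rich cells, 119 genes were higher and 61 lower in both libraries, and the cytokine list medians were 1.68 and 4.22. Beyond these values, the part of fibroblast transcripts in the comparison was not tested.

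Compared with Foxp3 T cells, members had most Th1 and cytotoxic list genes higher but Gzmb lower, most regulatory genes lower, and also more fibroblast transcripts. Only 13 and 26 Foxp3 T cells could be summed, with 168228 and 224284 UMIs. Of 5643 genes, 250 were higher in members at least 2-fold in both libraries (4.43%) and 114 lower (2.02%). Ikzf2 (Helios, a transcription factor of regulatory T cells) stood at 44.3 CPM in members and 719 CPM in Foxp3 T cells of sgCPT1A (−4.02), and at 75.1 and 727 CPM in sgVC (−3.28). Il2ra, the high-affinity chain of the IL-2 receptor, stood at 94.1 and 719 CPM (−2.93), and at 148 and 531 CPM (−1.84). Ctla4, an inhibitory receptor, stood at 424 and 1326 CPM (−1.65), and at 288 and 1222 CPM (−2.08). The others on the lower side were Izumo1r (−3.17 and −3.32), Arl5a (−2.76 and −1.61), Cd81 (−2.62 and −1.79), Tnfrsf4 (−1.96 and −1.52), Pglyrp1 (−1.81 and −1.82), Cmtm7 (−1.73 and −1.58) and Cd27 (−1.69 and −1.60).

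On the higher side over Foxp3 T cells, Ifng stood at 577 CPM in members and 5.94 CPM, 1 UMI, in Foxp3 T cells of sgCPT1A (6.60, 4.12 to 11.91), and at 905 and 107 CPM in sgVC (3.08). Cxcr6, a chemokine receptor of tissue T cells, stood at 337 and 17.8 CPM (4.24, 2.69 to 6.52), and at 242 and 13.4 CPM (4.18, 2.62 to 6.46), on 3 UMIs in Foxp3 T cells of each library. Klrd1, a lectin-like receptor chain, and the cytokines Csf2 and Tnfsf8 had no UMI in Foxp3 T cells of either library, which gave log2 ratios of at least 3.63, at least 3.04 and at least 2.60 in sgCPT1A and at least 3.22, at least 5.49 and at least 3.62 in sgVC. The remaining genes were Il13 (3.67, 1.17 to 8.98 with 1 UMI in Foxp3 T cells, and at least 4.38), Ctsw (at least 3.61, and 4.78, 2.28 to 10.09 with 1 UMI), Ifitm2 (5.23 and 3.09), Tnfsf11 (at least 2.38 and 3.87) and Itgb1 (3.86 and 2.23). By list, Th1 genes were higher for 12 of 15 in sgCPT1A (median 1.49, all genes −0.05) and 10 of 15 in sgVC (median 1.64, all genes −0.07), where 23% and 19.6% of all genes were higher by 1.5-fold. Regulatory genes were lower for 13 of 16 in both (median −1.80 and −1.33), where 23.2% and 19.3% of all genes were lower. Cytotoxic genes were higher for 7 of 11 and lower for 4 in sgCPT1A, with 4 ratios being bounds. In sgVC they were higher for 12 of 15 and lower for 2, with 6 bounds. Gzmb went the other way, at 124 CPM in members and 993 CPM in Foxp3 T cells of sgCPT1A, and at 367 and 1641 CPM in sgVC. Fibroblast markers were higher for 7 of 7 in sgCPT1A (median 5.31) and 10 of 10 in sgVC (median 3.90), and without collagen-rich cells 186 genes were higher and 107 lower in both libraries.

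Among the helper cytokines, Ifng was seen in more members than Il4, Il13, Il17a or Il21. A UMI of Ifng was seen in 137 of 236 sgCPT1A members (58.1%) and 139 of 267 sgVC members (52.1%), and, with cells thinned to 1000 UMIs, in 29.7% of 236 sgCPT1A members (23.9 to 35.9%) and 31.6% of 266 sgVC members (26.0 to 37.5%). The shares of Ifng-positive members thus lay close together in the 2 libraries. Cells over the neutrophil limit, which should lack these T cell transcripts and had median depths of 2667.5 and 1503 UMIs, gave the background of free RNA, and Ifng was seen in 0.0267% of 3748 thinned cells in sgCPT1A and in 0 of 1342 in sgVC, which allows a share of up to 0.224%. Tbx21 and Ifng were often seen in the same members: Ifng was found in 63 of the 79 sgCPT1A members with a Tbx21 UMI (79.7%) and in 55 of 73 sgVC members (75.3%). Deeper cells show more of both genes, so the joint share is a description.

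The transcription factor and the cytokines of the Th2 programme differed in how widely they were seen. Gata3, which all T cells can carry at a low level, was seen at 1000 UMIs in 16.1% of sgCPT1A members (11.7 to 21.4%) and 13.2% of sgVC members (9.34 to 17.8%), and at full depth in 148 and 117 members. Il13 was seen at 1000 UMIs in 2.97% of sgCPT1A members (1.20 to 6.02%) and 8.27% of sgVC members (5.26 to 12.3%), and at full depth in 23 and 42 members, with 0.0267% and 0.224% of thinned cells over the neutrophil limit as background. Ifng and Il4 were seen together in 4 sgCPT1A members and 3 sgVC members. Il17a, the Th17 cytokine, had 3 UMIs in 1 sgCPT1A member and 83 UMIs in 5 sgVC members, so its level rested on a handful of cells. Il21, the follicular helper cytokine, had 31 UMIs in 11 sgCPT1A members and 2 UMIs in 2 sgVC members, and Cxcr5, the follicle-homing receptor of those cells, had no UMI in either.

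Markers of help, costimulation and early differentiation were seen in more of the sgCPT1A members. At 1000 UMIs, Cd40lg was seen in 9.32% of sgCPT1A members (5.93 to 13.8%) and 5.26% of sgVC members (2.91 to 8.67%), and at full depth in 48.3% and 22.5%. The costimulatory receptor Icos was seen in 40.7% (34.4 to 47.2%) and 29.7% (24.3 to 35.6%), and at full depth in 80.1% and 71.5%. Tcf7 (chromosome 11, 52252371 to 52283014, minus strand), the transcription factor TCF-1 of naive and memory T cells, was seen in 9.75% (6.28 to 14.3%) and 3.38% (1.56 to 6.33%), and at full depth in 27.5% and 11.6%. Other genes were seen in more of the sgVC members, and with 1 library a group none of these differences was tested. Tnfrsf4 was seen in 15.7% (11.3 to 21.0%) and 26.7% (21.5 to 32.4%), at full depth in 46.2% and 59.6%, and Csf2 in 6.36% (3.60 to 10.3%) and 15.04% (11 to 19.9%), at full depth in 14.4% and 30.0%. Gzmb was seen in 7.20% (4.25 to 11.3%) and 17.7% (13.3 to 22.8%), at full depth in 16.1% and 31.5%. Background in thinned cells over the neutrophil limit was at most 0.447% for these genes in both libraries.

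**Figure D3:**
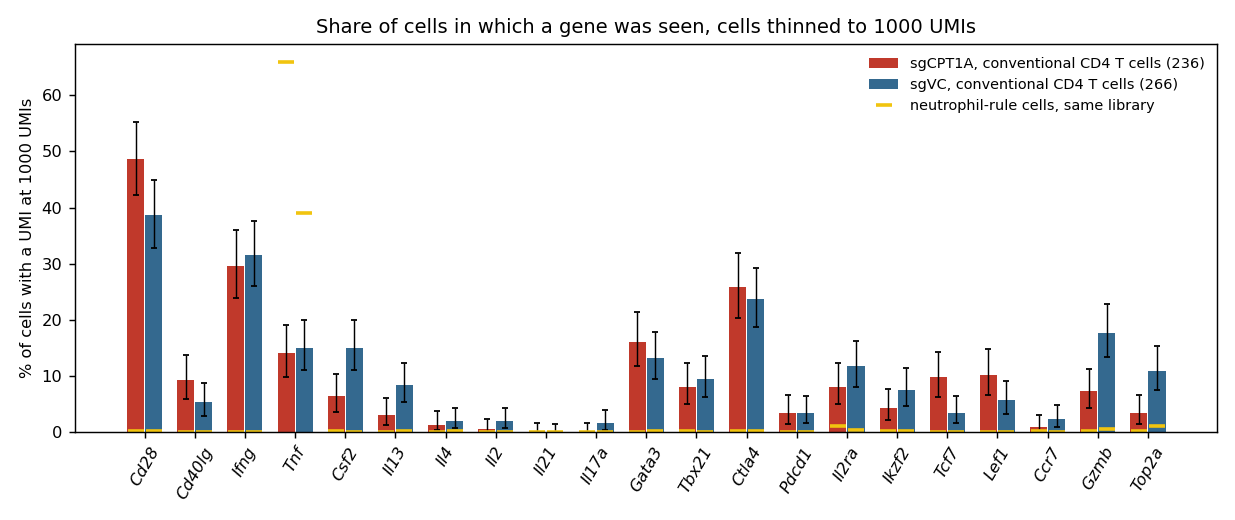
Share of conventional CD4 T cells (%) with a UMI of each gene after thinning to 1000 UMIs, sgCPT1A at left (red, 236 members) and sgVC at right (blue, 266 members), with exact binomial 95% intervals, and yellow dashes for cells over the neutrophil limit of the same library. Tcf7 is higher in sgCPT1A (9.75% against 3.38%), and Gzmb, Csf2 and Top2a are higher in sgVC. Tnf lies below the neutrophil dashes, so for Tnf the dashes cannot serve as a background. The source of the Tnf UMIs in members was not tested.

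Between the libraries, most type I interferon-induced genes were higher and most cell cycle genes lower in members of the sgCPT1A tumour than in members of the sgVC tumour. Naive and receptor signalling genes were higher in smaller counts, 6 of 13 and 6 of 19 measured, and glycolysis genes lower in 6 of 17. Of 7954 genes with at least 30 UMIs, 348 were higher in sgCPT1A members at least 2-fold (4.38%) and 626 lower (7.87%). With 1.5-fold as the step for lists, 14.1% of all genes were higher and 20% lower, and the median log2 ratio over all genes was −0.06. In CD8 T cells of the same libraries, 13.5% of 5563 genes were higher and 14% lower by 1.5-fold, also with a median of −0.06.

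**Figure D4:**
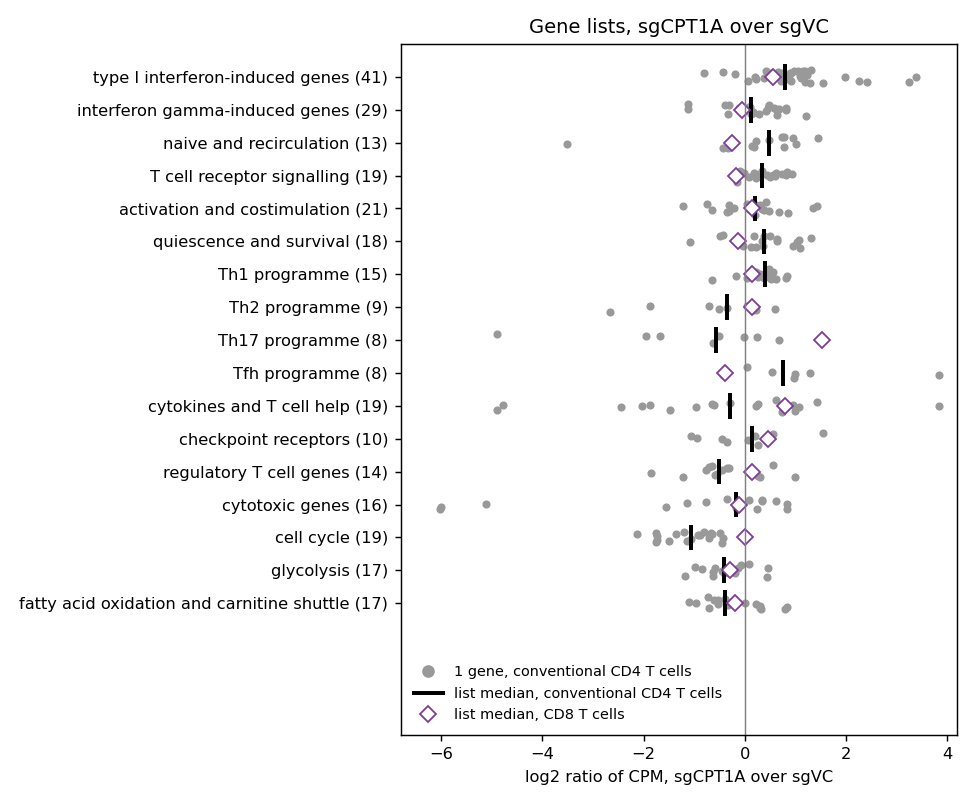
Log2 ratio of CPM, sgCPT1A over sgVC, for each measured gene of 17 lists in conventional CD4 T cells (grey points, number measured in brackets), with the list median (black bar) and the median of the same list in CD8 T cells (open diamond). The interferon list has the highest CD4 median (0.79) and the cell cycle list the lowest (−1.06), where the CD8 median is −0.00.

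Type I interferon-induced genes were the list with the most genes higher. Of 46 genes, 41 were measured, and 32 of these were higher at least 1.5-fold and 1 was lower, with a median log2 ratio of 0.79. Rsad2 (viperin, an antiviral enzyme) stood at 172 CPM in sgCPT1A members (153 to 192) and 18.2 CPM in sgVC members (12.3 to 25.9), a log2 ratio of 3.24 (2.70 to 3.84). It was seen in 41 and 21 members, and 1 sgCPT1A member held 141 of the 307 UMIs. The ratio without the UMIs of that member was 2.36, with the top sgVC cell kept. Slfn5 stood at 91.9 and 31.5 CPM (1.55, 1.09 to 2.02), and Slfn2, a relative of it that keeps T cells quiescent in mice, at 419 and 188 CPM (1.16, 0.96 to 1.35). Isg15, a ubiquitin-like protein, was higher by less, at 476 and 294 CPM (0.69, 0.53 to 0.86). At full depth it was seen in 136 of 236 sgCPT1A members and 128 of 267 sgVC members. At 1000 UMIs its shares lay close together, at 27.1% of sgCPT1A members (21.6 to 33.3%) and 24.4% of sgVC members (19.4 to 30.1%). With cells thinned to 1000 UMIs before the rule the list median was 0.30.

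Among transcription factors of the pathway, Irf7 stood at 61.1 CPM in sgCPT1A members and 32.7 CPM in sgVC members (0.90, 0.42 to 1.40), and Stat2 at 46.5 and 21.8 CPM (1.09). Parp14 stood at 132 and 57.5 CPM (1.19), Bst2 (tetherin) at 109 and 63.0 CPM (0.79), and the small membrane protein gene Ifi27l2a at 1478 and 802 CPM (0.88). Ifi206 had 34 UMIs in sgCPT1A members and 3 in sgVC members, a ratio of 3.39 with a wide interval (1.72 to 5.74). The gene on the lower side was Ly6a, at 140 and 245 CPM (−0.81, −1.05 to −0.58). Thus most but not all of the list was higher, and the Slfn, Ifi and Oas genes in it have close relatives between which reads can be divided.

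The list was also higher in CD8 T cells of the sgCPT1A library, for 18 of 37 genes with 0 lower (median 0.56). Per member, the list made up a median of 0.480% of UMIs in sgCPT1A (0.0736 to 4.995%) and 0.421% in sgVC (0.0287 to 2.52%), so the medians lay close together and the highest members were in sgCPT1A. Cells over the neutrophil limit were rich in these transcripts, with Isg15 at 5220 CPM in sgCPT1A and 2121 CPM in sgVC cells over the neutrophil limit, and were the more numerous in sgCPT1A. Neutrophil marker transcripts stood in members at 1.12% of their neutrophil level in sgCPT1A and 0.616% in sgVC, against a median of 21.2% and 25.9% for the interferon list. With free neutrophil RNA taken off at the marker rates, an alternative added after seeing the data, the list median was again 0.79. Rates so far below the list's own level could hardly move that median, so no conclusion is drawn from it. Free RNA of other cells was not taken off, and the part of free RNA in the list was not tested. The list that interferon gamma induces more selectively differed little, with 6 of 29 genes higher and 2 lower (median 0.12).

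Many interferon-induced genes carry an interferon-stimulated response element near their start. In windows from 250 bases before to 50 bases after the gene start (RefSeq, GRCm38.p6), the motif GAAANNGAAA was searched on both strands, where the other strand reads TTTCNNTTTC. Counted by window, it was present in 1131 of 32851 windows (3.44%). The list was counted by gene, with a match in any window of the gene, so its shares are in another unit. The motif was present in 19 of the 35 interferon list genes with a window (54.3%). Among those with a window, it was present in 16 of the 28 higher by 1.5-fold (57.1%) and in 1 of the 4 measured that were not (25%). Because the list is defined by interferon induction, its share describes the list and not these cells. The windows of Isg15 (chr4:156200769-156201068, minus strand, 3 matches, some overlapping), Rsad2 (chr12:26456403-26456702, minus strand, 1 match), Slfn5 (chr11:82951852-82952151, plus strand, 1 match) and Slfn2 (chr11:83064862-83065161, plus strand, no match), the genes whose values head the list above, are printed from 5′ to 3′ on the gene's strand, with the motif in capitals.
Isg15: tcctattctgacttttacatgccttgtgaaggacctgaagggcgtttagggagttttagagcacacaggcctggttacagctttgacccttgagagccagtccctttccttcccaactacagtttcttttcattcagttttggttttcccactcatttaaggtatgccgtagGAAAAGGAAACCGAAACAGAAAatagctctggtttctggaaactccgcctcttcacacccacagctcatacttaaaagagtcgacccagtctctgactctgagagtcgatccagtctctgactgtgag
Rsad2: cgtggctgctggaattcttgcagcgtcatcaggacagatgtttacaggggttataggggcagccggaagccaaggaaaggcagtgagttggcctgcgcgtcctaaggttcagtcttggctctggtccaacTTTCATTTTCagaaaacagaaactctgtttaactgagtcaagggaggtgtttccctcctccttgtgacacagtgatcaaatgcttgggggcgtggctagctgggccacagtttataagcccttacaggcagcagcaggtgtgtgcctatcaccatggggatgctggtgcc
Slfn5: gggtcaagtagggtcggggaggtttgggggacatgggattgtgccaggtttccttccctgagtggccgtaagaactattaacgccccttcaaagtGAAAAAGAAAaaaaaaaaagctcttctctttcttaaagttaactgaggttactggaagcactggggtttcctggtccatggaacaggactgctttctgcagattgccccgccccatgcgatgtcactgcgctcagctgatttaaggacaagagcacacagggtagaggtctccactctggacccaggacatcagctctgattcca
Slfn2: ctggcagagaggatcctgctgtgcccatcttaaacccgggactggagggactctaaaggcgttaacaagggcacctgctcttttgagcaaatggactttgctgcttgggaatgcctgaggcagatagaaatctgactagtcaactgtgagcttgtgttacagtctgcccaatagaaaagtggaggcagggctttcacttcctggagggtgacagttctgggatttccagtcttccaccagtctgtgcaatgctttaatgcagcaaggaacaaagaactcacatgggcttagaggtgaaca
Slfn2 was higher with no match in its window, so a match in these letters was not shared by all the genes that were higher.

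Cell cycle genes were lower in sgCPT1A members as a set. Of 19 measured, 16 were lower at least 1.5-fold and 0 higher (median −1.06), and in CD8 T cells 3 of 18 were lower and 0 higher (median −0.00). Per cell, the list made up a median of 0.117% of UMIs in sgCPT1A members and 0.158% in sgVC members. In CD8 T cells these medians were 0.122% and 0.159%, so by this measure CD8 T cells were also lower in sgCPT1A. With cells thinned before the rule the CD4 median log2 ratio was −0.69, and the difference between CD4 and CD8 T cells was not tested. Ube2c, a ubiquitin-conjugating enzyme of mitosis, stood at 82.4 CPM in sgCPT1A members (69.6 to 96.8) and 279 CPM in sgVC members (254 to 306), a log2 ratio of −1.76 (−2.04 to −1.49). Birc5 (survivin) stood at 80.1 and 266 CPM (−1.73), Top2a, the topoisomerase of dividing cells, at 95.2 and 209 CPM (−1.14), and the proliferation marker Mki67 at 123 and 217 CPM (−0.81). Outside the list, the mitotic kinase Aurkb stood at 14 and 63 CPM (−2.17). At 1000 UMIs, Top2a was seen in 3.39% of sgCPT1A members (1.47 to 6.57%) and 10.9% of sgVC members (7.42 to 15.3%), at full depth in 48 and 73 members, against 0.0800% and 1.04% of thinned cells over the neutrophil limit. Mki67 was seen in 5.08% of sgCPT1A members (2.65 to 8.71%) and 8.65% of sgVC members (5.56 to 12.7%), at full depth in 39 and 74 members, against 1.47% and 0.596% of those cells.

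**Figure D5:**
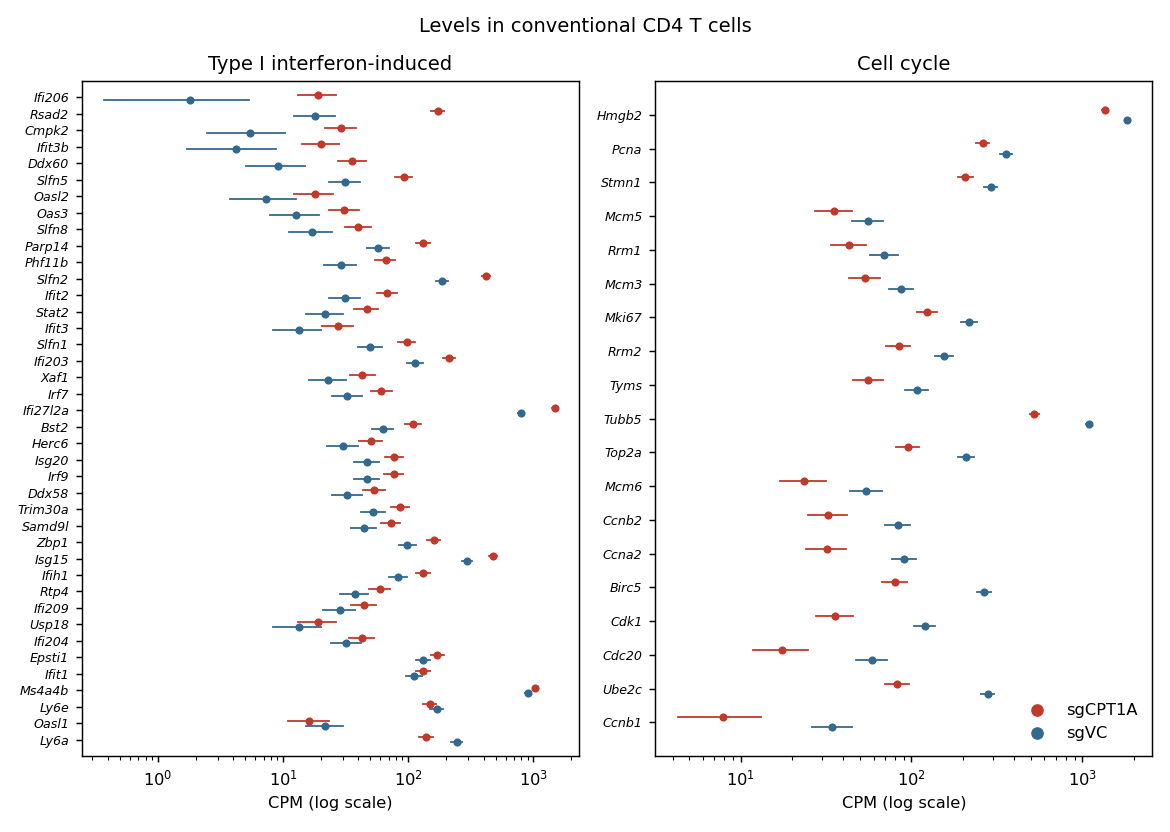
CPM (log scale) of interferon-induced (left) and cell cycle (right) list genes in conventional CD4 T cells, sgCPT1A in red and sgVC in blue, with exact Poisson 95% intervals. Most interferon genes lie further right in sgCPT1A, from Ifi206 (19.0 and 1.82 CPM) to Ly6a in the opposite order (140 and 245 CPM), and all 19 cell cycle genes lie further left.

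Of glycolysis genes, 6 of 17 were lower and 0 higher, with a median of −0.41. Pgam1 stood at 196 CPM in sgCPT1A members and 446 CPM in sgVC members (−1.19), Pgk1 at 366 and 730 CPM (−0.99), and Ldha, which makes lactate, at 647 and 1000 CPM (−0.63). Gapdh, the highest of the list in UMIs, stood at 1948 and 2653 CPM (−0.45). The entry steps did not follow, since hexokinase 2 (Hk2) stood at 107 and 78.7 CPM (0.44, 0.11 to 0.78) and the glucose transporter Slc2a3 at 100 and 73.3 CPM (0.45). CD8 T cells had 4 of 16 higher and 1 lower (median −0.30).

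Genes of naive and recirculating T cells were higher in sgCPT1A members for 6 of 13, with 1 lower (median 0.47). Tcf7 stood at 65.6 CPM (54.2 to 78.6) in sgCPT1A members and 24.2 CPM (17.3 to 33) in sgVC members (1.44, 0.91 to 1.99), and its relative Lef1 at 86.3 and 44.8 CPM (0.95). Il7r, the receptor for the survival cytokine IL-7, stood at 318 and 185 CPM (0.78), and the chromatin organiser Satb1 at 603 and 364 CPM (0.73). Klf2, a factor of recirculation, stood in the other order, at 317 and 429 CPM (−0.44). Igfbp4 was the list's lower gene, at 17.4 and 200 CPM (−3.52), with 330 UMIs in 36 sgVC members of which 1 held 108, and without members carrying Ikzf2 or Lrrc32 UMIs its ratio was −1.55. In CD8 T cells the list had 2 of 11 higher and 5 lower (median −0.25), with Tcf7 at 19.5 and 43.1 CPM.

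Quiescence and survival genes were higher for 7 of 18, with 1 lower (median 0.37), among them the translation inhibitor Pdcd4 (247 CPM in sgCPT1A members and 101 CPM in sgVC members, 1.30), the transcription factor Foxo1 (127 and 60.5 CPM, 1.06) and the pro-apoptotic Bcl2l11 (210 and 102 CPM, 1.04). The antiproliferative Btg1 stood at 1648 and 1065 CPM (0.63). Receptor signalling genes were higher for 6 of 19 with 0 lower (median 0.34), including Cd28 (0.84), the phosphatase Ptpn22 (242 and 128 CPM, 0.92) and the adaptor Fyb (563 and 321 CPM, 0.81). Both lists had medians below 0 in CD8 T cells (−0.13 and −0.17).

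Activation and checkpoint receptors were mixed. Of 21 activation genes 4 were higher and 3 lower (median 0.19), with the transcription factor Irf4 at 73.4 CPM in sgCPT1A members and 29.1 CPM in sgVC members (1.34) and the early activation marker Cd69 at 986 and 615 CPM (0.68), but Tnfrsf9 (4-1BB) at 171 and 400 CPM (−1.22) and Il2ra at 94.1 and 148 CPM (−0.66). Lag3, an inhibitory receptor that binds MHC class II, stood at 53.2 and 18.2 CPM (1.55, 0.95 to 2.19) and was seen in 44 and 24 members. It lies next to Cd4 on the minus strand of chromosome 6 (124904361 to 124911705, Cd4 at 124864692 to 124888221). Ctla4 stood at 424 and 288 CPM (0.56), and weighting every member equally in place of every UMI gave −0.00. Pdcd1 (PD-1) stood at 36.4 and 49.6 CPM (−0.45, −0.94 to 0.04), an interval that includes 0.

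Cytokine and help genes split, with 7 of 19 higher, 9 lower and a median of −0.29. Higher were Cd40lg (1.43, 1.07 to 1.81), the myeloid growth factor Csf1 at 221 CPM in sgCPT1A members and 114 CPM in sgVC members (0.95), lymphotoxin beta (Ltb) at 873 and 527 CPM (0.73) and Tgfb1 at 155 and 73.9 CPM (1.07). Lower were Csf2 (chromosome 11, 54247271 to 54249667) at 146 and 600 CPM (−2.04, −2.24 to −1.84), Tnfsf11 (RANKL) at 93 and 261 CPM (−1.49), Lta at 19.0 and 104 CPM (−2.45) and Il13 at 75.6 and 278 CPM (−1.88, −2.17 to −1.60). Csf2 was seen in 34 sgCPT1A members and 80 sgVC members, and 1 member held 77 of 261 UMIs and 240 of 991. Il13 leaned on single cells as well, with 63 of 135 UMIs and 115 of 459 in 1 member. Its ratio was −1.46 without the 115 UMIs of the sgVC member, with the sgCPT1A member kept. Ifng (chromosome 10, 118441046 to 118445892) stood at 577 and 905 CPM (−0.65, −0.76 to −0.53).

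Several of the lowest genes of all came from very few cells. Il2 stood at 14 CPM in sgCPT1A members and 383 CPM in sgVC members (−4.77), but 1 sgVC member held 585 of 632 UMIs. The ratio without the UMIs of that member was −1.02, with the top sgCPT1A cell kept. Gzmc stood at 1.68 CPM, 3 UMIs, and 107 CPM (−5.99, −8.29 to −4.42), with 147 of 177 sgVC UMIs in 1 member (−3.43 without). The acute-phase gene Lbp stood at 46.5 and 214 CPM (−2.20), with 292 of 353 UMIs in 1 member, and was 0.33 without it. Tpm1 behaved likewise, at 18.5 and 107 CPM (−2.53, or −0.998 without the top cell and −0.61 without members carrying Ikzf2 or Lrrc32 UMIs). Ccl1, a chemokine of activated T cells, was spread more widely, at 25.2 and 358 CPM (−3.83), in 6 and 39 members, and −3.48 without the top sgVC cell. Nrgn (11.2 and 95.7 CPM, −3.09), Cd81 (24.1 and 120 CPM, −2.32, or −0.90 without those members) and the sterol synthesis enzyme Cyp51 (18.5 and 88.4 CPM, −2.26) completed the 10 lowest.

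At the other end, the small nuclear RNA 7SK stood at 255 CPM in sgCPT1A members and 25.4 CPM in sgVC members (3.33), and at 162 and 20.5 CPM in CD8 T cells. It is not polyadenylated, and it moved together with the RNA quality markers given above, as did Lars2 at 1189 and 396 CPM (1.59). The other genes of the 10 highest were the corepressor Tle4 (84.6 and 19.4 CPM, 2.13), Cd7 (60.5 and 17 CPM, 1.84), the ubiquitin ligase Mylip (56.6 and 17.6 CPM, 1.69), the chromatin chaperone Daxx (51.5 and 18.8 CPM, 1.46), the GTPase pseudogene Gvin-ps6 (155 and 60.5 CPM, 1.36), whose reads can be shared with its family, and Lag3, Tcf7 and Cd40lg as given. Tle4, a partner of TCF-1, was seen in 99 sgCPT1A members and 28 sgVC members.

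The helper lists had few measured genes. Tfh genes were higher for 4 of 8 with 0 lower (median 0.75), with Maf at 371 CPM in sgCPT1A members and 190 CPM in sgVC members (0.97) and the SLAM receptor Slamf6 at 89.1 and 36.3 CPM (1.29). Th1 genes were higher for 3 of 15 with 1, Ifng, lower (median 0.40), among them Stat4 (0.84) and the IL-18 receptor Il18r1 (228 and 129 CPM, 0.82), while Tbx21 stood at 67.2 and 57.5 CPM (0.23, −0.18 to 0.63). Th2 genes were lower for 3 of 9 and higher for 1, Gata3, at 212 and 141 CPM (0.59), with a median of −0.36. Th17 genes were lower for 4 of 8 and higher for 1 (median −0.57), and regulatory genes lower for 6 of 14 and higher for 1 (median −0.51), with Ikzf2 at 44.3 and 75.1 CPM (−0.76). Cytotoxic genes were lower for 6 of 16 and higher for 3 (median −0.17), with Gzmb at 124 and 367 CPM (−1.56, −1.79 to −1.34), Prf1 (perforin) at 1 and 32 UMIs, a ratio of −5.11 (−10.46 to −2.53), but Klrd1 at 221 and 125 CPM (0.83). No common direction ran through the helper and effector lists.

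Genes of fatty acid oxidation, the pathway of the guide's target, were lower for 5 of 17 and higher for 2 (median −0.40, all genes −0.06). At this 1.5-fold step 20% of all genes were lower and 14.1% higher, which holds for both lists of this paragraph. Cpt1a (chromosome 19, 3322334 to 3385733, plus strand) had 64 UMIs in sgCPT1A members, 35.9 CPM (27.6 to 45.8), and 34 UMIs in sgVC members, 20.6 CPM (14.3 to 28.8), a log2 ratio of 0.80 (0.18 to 1.45), and the carnitine carrier Slc25a20 stood at 26.9 and 15.1 CPM (0.83). The dehydrogenase Acadm was lower, at 13.4 and 29.1 CPM (−1.11). For the cGAS-STING pathway named in the study's title, Cgas stood at 14.6 and 16.3 CPM (−0.17) and Sting1 at 46.5 and 50.3 CPM (−0.11), each with an interval that includes 0, while the nucleotide hydrolase Samhd1 stood at 271 and 154 CPM (0.82). Of its 10 measured genes 2 were higher and 1 lower (median 0.17).

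Markers of other cell types also moved between the libraries within members. Neutrophil markers outside the rule were higher for 6 of 9 measured (median 1.34, or −0.11 with free neutrophil RNA taken off), with the 12 listed summing to 3817 CPM in sgCPT1A members and 2705 CPM in sgVC members, per member 0.0445 to 6.30% and 0 to 2.91% of UMIs, Retnlg at 0 in both and the other 11 markers present. Dendritic markers were lower for all 5 measured (median −3.72), the 11 listed summing to 38.7 and 373 CPM, with Clec9a and Cd209a at 0 in both and 87.2% of the sgVC UMIs in 5 members. Fibroblast markers summed to 6434 and 6954 CPM over 10 genes, with 1 higher and 4 lower (median −0.20) and none at 0, mostly in the collagen-rich members, and without those members the interferon list median was 0.83 and that of the cell cycle list −1.09. Tumour markers summed to 1823 and 3251 CPM over 7 genes, with 3 of 3 measured lower. Macrophage markers summed to 531 and 544 CPM over 12 genes, with Ms4a7 at 0 in both, and markers of B, natural killer, γδ T and erythroid cells summed to at most 75.1 CPM in sgCPT1A members and 135 CPM in sgVC members. Ms4a1 of B cells and Klra4 of natural killer cells were at 0. Their part in the results was not tested beyond these values.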

How the data were processed

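Whole tumours were minced and digested without a sort, and single cells were captured with 10x 3′ version 3 chemistry, per the labels' protocols. The deposited files hold UMI counts per gene and cell barcode, made by the authors with Cell Ranger 7.1.0, per the file headers. GRCm38 and Seurat 4.1.0 are named in the submitters' processing notes. Neither the release of the annotation nor how cells were called is given in the sources used here.

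From these counts, cells were kept and classed by the limits in the report, UMIs were summed per class and library, and levels (CPM) were taken per 1000000 of those UMIs. Level intervals are exact Poisson, ratio intervals exact conditional binomial and share intervals exact Clopper-Pearson, all at 95%. Zero counts were set against a floor of 3 UMIs per summed class. Genes needed at least 30 UMIs over both sums. Cells were thinned to 1000 UMIs with a fixed seed, which left out 1 sgVC member. No model was fitted, since each group had 1 library with a file, and no p-value is given. Doublets were not removed. Scrublet, run through scanpy 1.11.5, marked 0.0148% of sgCPT1A cells, too few to use, and 3.03% of sgVC cells, 5 of them members, which an alternative left out. Ratio intervals were tried on data simulated with counting error only, the error they assume, so that trial does not cover the spread between cells. Python 3.11.15, numpy 2.4.6, scipy 1.17.1, pandas 2.3.3 and matplotlib 3.10.9 were used.

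The members and the gene lists were chosen with earlier results of these data known. Genes were named by rank of ratio (10 highest and 10 lowest) among genes with at least 50 CPM, in at least 10 cells and at no less than 25% of the highest level in other cell classes, without the genes of the rule, receptor segments, globins, dosage genes of the sex chromosomes, predicted genes, and genes of ribosomal proteins or mitochondria. List genes outside that rank were named where a list is described, after their values were seen. Alternatives varied the cell limits, the purity limits, Cd4 and regulatory marker requirements, depth, doublets, scaling, weighting and UMI minimum. Those without collagen-rich cells and with free neutrophil RNA taken off were added after seeing the data. A split of the members by naive markers is not reported here.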

Additional observations from a re-analysis of the deposited data

How the results depend on the processing

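Over 18 alternatives, 109 values of the shares and counts stayed and 37 moved, where a count stayed within 1.5 times its value and a share or ratio of cells within its 95% interval. Of 4215 values of single genes and lists 3796 stayed, 408 moved and 11 turned direction, where a gene stayed within its 95% interval and a list median within 0.585 on the log2 scale. Turning was counted only where the main value was at least 2-fold for a gene or 1.5-fold for a list. Bounds on the other side of 0 were left out. Smaller values that changed sign counted as moved or stayed, such as Ctla4 (0.56, lowest −0.57) and the cGAS-STING list (0.17, lowest −0.28) between libraries. With cells thinned to 1000 UMIs before the rule, 31 genes were higher and 58 lower between sgCPT1A and sgVC members, 7 and 11 over CD8 T cells, and 2 were higher over Foxp3 T cells. Fewer cells and UMIs enter that setting. Members per CD8 T cell were then 1.62 in sgCPT1A and 0.789 in sgVC, their share of T-gated cells 18.1% and 16.0%, and of kept cells 1.05% and 1.12%. A minimum of 10 UMIs gave 826 higher and 1266 lower between libraries, 243 and 106 over CD8 T cells, and 296 lower over Foxp3 T cells. A minimum of 100 UMIs gave 126 and 233, 39 and 25, and 110 and 37 in the same order of comparisons.

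At least 2 Cd4 UMIs gave 2.40 members per CD8 T cell in sgCPT1A and 0.706 in sgVC, 29.8% and 16.6% of T-gated cells, and 2.39% and 1.55% of kept cells. Without Ikzf2 or Lrrc32 UMIs there were 38.0% and 23.3% of T-gated cells, 3.04% and 2.17% of kept cells and 0.991 members per CD8 T cell in sgVC, with 389 lower between libraries. A gate of 5 UMIs gave 48.9% of T-gated cells in sgCPT1A, removal of collagen-rich cells 51.0%, and a minimum of 500 genes 4.11% of kept cells.

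Counted as turned in direction were Lbp (0.29 with stricter purity limits, 3.04 without Ikzf2 or Lrrc32 UMIs, 0.28 without doublets, 0.33 without its top cell) and the neutrophil list (−0.11 with free neutrophil RNA taken off). Over CD8 T cells, the Tfh list in sgVC gave −0.26 (no Ikzf2 or Lrrc32 UMIs) and −0.35 (100 UMIs), the cytokine list in sgVC −0.32 (thinned), and the natural killer list −0.28 (equal weight) and −1.93 (no top cell) in sgVC and 0.31 (10 UMIs) in sgCPT1A. The cause was not tested. Each group had 1 library, so the spread between tumours is unknown and no value can be set against it. No paired analysis was possible because each group had 1 library with a file.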
